A study of Homo sapiens with 15 samples.

Results

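The ERBB receptors and their ligands were followed as 10 genes: the receptors EGFR, ERBB2 and ERBB3, the EGFR ligands AREG, EREG, TGFA, HBEGF, BTC and EPGN, and the ERBB3 ligand NRG1. The genes were chosen by symbol alone from a table of 25503 genes, and all 10 were found. RNA was sequenced in 15 libraries from 2 human pancreatic ductal adenocarcinoma lines, with 3 libraries in each of 5 groups. AsPC-1 cells, a line grown from ascites, had received an siRNA against B4GALT5 (siB4GALT5), an siRNA against B3GNT3 (siB3GNT3) or a control siRNA (siNC). Capan-1 cells, a line grown from a liver metastasis, had received siB3GNT3 or siNC; the name Capan-1 is that of the sample titles, while the cell line and source fields of all 6 libraries read Capable-1. B4GALT5 is a galactosyltransferase that makes lactosylceramide, and B3GNT3 is an N-acetylglucosaminyltransferase that extends O-glycans. Every group was an siRNA transfection of 1 line. The siRNA sequences, their number per target and the time after transfection are not stated in the labels, which also do not say whether the replicates were grown apart. The p-values therefore measure the spread between libraries, which may be technical.

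ERBB receptors are receptor tyrosine kinases that pair on ligand binding and signal through adaptors to the RAS-MAPK and PI3K pathways. EGFR ligands are made as membrane-bound precursors and released by metalloproteases such as ADAM17. ERBB2 has no known ligand of its own and acts as a partner, and ERBB3 has weak kinase activity and binds neuregulins. In pancreatic ductal cells EGFR signalling is known, from mouse models, to take part in the formation of tumours.

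Levels are FPKM, fragments per kilobase of transcript scaled to the fragments of the library, which allow genes of different length to be set side by side. B4GALT5 had 8.70, 8.49 and 8.03 FPKM in AsPC-1 siB4GALT5 libraries, against 38.7, 35.8 and 35.5 FPKM in AsPC-1 siNC libraries. B3GNT3 had 2.53 and 2.50 FPKM in AsPC-1 siB3GNT3 replicates 1 and 2, against 22.5, 23.8 and 23.3 FPKM in AsPC-1 siNC libraries. The library labelled AsPC-1 siB3GNT3 replicate 3 had 24.2 FPKM of B3GNT3, at the siNC level, and is given apart throughout. Over all genes tested it lay as near to the siNC libraries (root mean square log2 distance 0.141 to 0.150) as they lay to each other (0.144 to 0.146). In Capan-1, B3GNT3 had 1.32, 1.67 and 1.84 FPKM in siB3GNT3 libraries, against 13.3, 13.2 and 13.7 FPKM in siNC libraries. Capan-1 siB3GNT3 replicate 3, though its target was reduced, lay nearer to the siNC libraries (0.334 to 0.342) than replicate 1 (0.431 to 0.439) or replicate 2 (0.374 to 0.384). AsPC-1 siB4GALT5 replicate 3 lay 0.242 to 0.261 from the other libraries of its group, against 0.151 between replicates 1 and 2. The epithelial markers KRT8, KRT18, KRT19 and EPCAM were at 23.3 FPKM or more in all 15 libraries, while CDH1 and KRT7 reached 1 FPKM in the 6 Capan-1 libraries only. Of the leukocyte markers PTPRC stayed at or below 0.160 FPKM and CD3E at or below 0.0740 FPKM, while CD68 had 38.8 to 212 FPKM. CD14 and LYZ, with at most 5.44 and 2.94 FPKM, reached 1 FPKM in the 6 Capan-1 libraries only. So did the endothelial marker PECAM1, with at most 1.63 FPKM, while the other endothelial markers stayed at or below 0.121 FPKM. The fibroblast marker LUM had 5.63 to 91.8 FPKM, while COL1A2, COL3A1, DCN and FAP stayed at or below 0.753 FPKM. In AsPC-1 the 8 epithelial markers summed to 1947 to 1976 FPKM with siB4GALT5 and 1666 and 1677 FPKM with siB3GNT3 replicates 1 and 2, against 2046 to 2103 FPKM with siNC. Members of this sum moved both ways. On average KRT8 had 732 FPKM with siNC, 509 FPKM with siB4GALT5 and 539 FPKM with siB3GNT3 replicates 1 and 2, and KRT19 also fell. KRT18 had 642, 922 and 721 FPKM in the same order, and EPCAM and MUC1 also rose. Mitochondrially encoded mRNAs held 18.1% to 19.5% of all FPKM with siB4GALT5 and 20.1% and 19.7% with siB3GNT3 replicates 1 and 2, against 23.8% to 24.8% with siNC. The summed leukocyte markers, of which 1 (CD68) reached 1 FPKM in AsPC-1, had 48.5 to 51.6 FPKM with siB4GALT5 and 51.7 and 52.4 FPKM with siB3GNT3 replicates 1 and 2, against 39.1 to 40.6 FPKM with siNC. In Capan-1 the epithelial markers summed to 3176 to 4032 FPKM with siB3GNT3, against 4918 to 5149 FPKM with siNC, and fibroblast markers, mostly COL1A1 (75.7 FPKM on average with siB3GNT3 and 50.0 FPKM with siNC), to 81.8 to 87.8 FPKM with siB3GNT3, against 58.6 to 64.4 FPKM with siNC. Here too members differed: CDH1 had 23.8 FPKM on average with siB3GNT3 and 17.8 FPKM with siNC, and MUC1 58.3 and 57.1 FPKM. The other epithelial markers were lower on average with siB3GNT3. Of the fibroblast markers LUM was lower, at 5.88 FPKM with siB3GNT3 and 9.64 FPKM with siNC. ACTA2 and PDGFRB, with at most 2.08 and 1.99 FPKM, were higher on average. Of the leukocyte markers in Capan-1, CD68 had 189 FPKM on average with siB3GNT3 and 163 FPKM with siNC, and CD14 4.84 and 2.85 FPKM. LYZ was lower, at 1.42 FPKM with siB3GNT3 and 2.39 FPKM with siNC. The part of these shifts in any result was not tested. In bulk RNA, fewer cells with a transcript and less of it per cell cannot be told apart.

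EPGN, EREG, AREG and BTC lie together within 486 kb of chromosome 4 in GRCh38.p14, and 56.4 kb separate the end of EREG (chr4:74365145-74388749) from the start of AREG (chr4:74445136-74455005), both on the plus strand. HBEGF lies on the minus strand of chromosome 5 (chr5:140332843-140346603). The RefSeq promoters of these 3 ligands are shown because their transcripts changed in more comparisons than those of the other ligands. Each runs from 250 bases before to 50 bases after the RefSeq start of GRCh38.p14 and is written 5′ to 3′ on the gene's own strand: EREG at chr4:74364895-74365194 (plus), AREG at chr4:74444886-74445185 (plus) and HBEGF at chr5:140346554-140346853 (minus). Capitals mark matches to a cAMP response element (TGACGTCA), an AP-1 element (TGANTCA), a C/EBP-ATF element (TGATGNAAN) or a TATA box (TATAAA), searched on both strands; no 2 of the matches shown overlap.
EREG: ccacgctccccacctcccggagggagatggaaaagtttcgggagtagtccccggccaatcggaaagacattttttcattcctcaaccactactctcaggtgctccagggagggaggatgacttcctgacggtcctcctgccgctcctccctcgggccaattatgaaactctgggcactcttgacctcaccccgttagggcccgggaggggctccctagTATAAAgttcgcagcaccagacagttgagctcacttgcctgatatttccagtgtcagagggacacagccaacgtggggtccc
AREG: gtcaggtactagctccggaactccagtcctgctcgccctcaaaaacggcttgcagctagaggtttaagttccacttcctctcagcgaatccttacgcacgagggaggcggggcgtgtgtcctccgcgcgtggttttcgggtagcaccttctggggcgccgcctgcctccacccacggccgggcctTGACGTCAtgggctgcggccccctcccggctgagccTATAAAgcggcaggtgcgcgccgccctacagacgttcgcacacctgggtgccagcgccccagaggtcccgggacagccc
HBEGF: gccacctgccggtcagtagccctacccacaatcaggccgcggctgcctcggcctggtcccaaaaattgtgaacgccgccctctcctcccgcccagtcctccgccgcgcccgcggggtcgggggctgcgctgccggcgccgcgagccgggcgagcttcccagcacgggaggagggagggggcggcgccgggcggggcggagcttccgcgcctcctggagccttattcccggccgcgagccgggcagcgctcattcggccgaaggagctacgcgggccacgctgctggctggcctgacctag
The EREG promoter held 1 TATA box whose first base lay at -32 from the start, and no match to the other motifs. The AREG promoter held a TATA box at -29 and a cAMP response element at -65. The HBEGF promoter matched none of the 4 motifs. Of all 35116 RefSeq promoters of this length, 11.5% held the TATA box, 1.85% the cAMP response element, 7.71% the AP-1 element and 3.61% the C/EBP-ATF element. Of the 10 genes, 8 had a promoter in the search, which left out ERBB3 and NRG1.

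**Figure D1:**
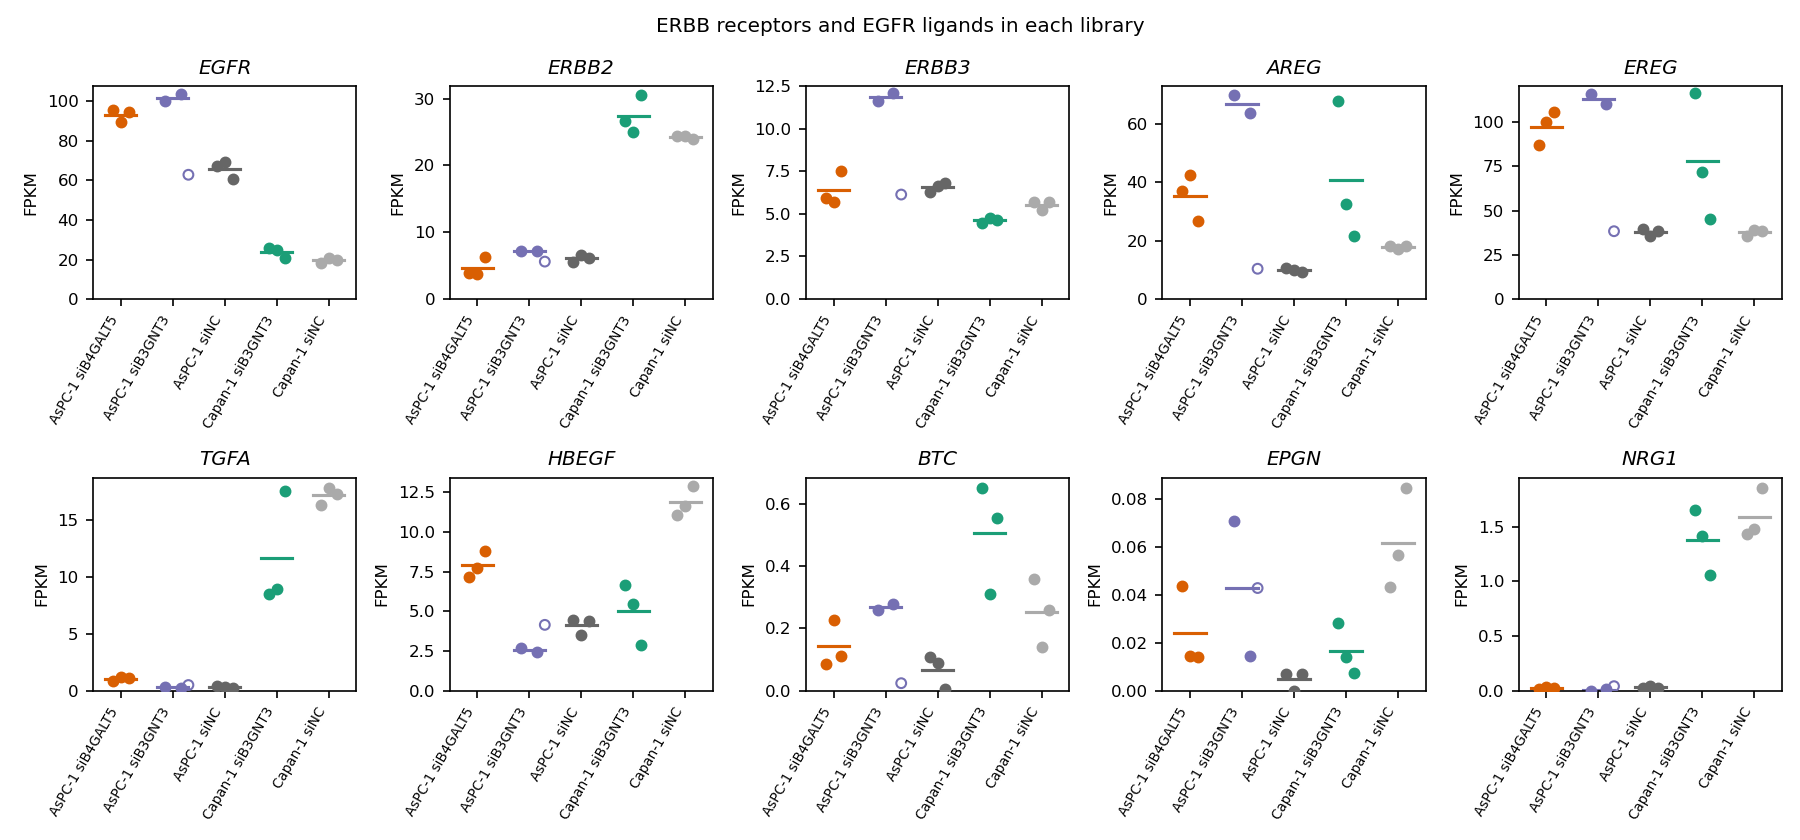
FPKM of the 10 genes in each library (points), with the group mean as a bar; each panel has its own axis from 0, and the open circle, left out of its mean, is the library labelled AsPC-1 siB3GNT3 replicate 3. AREG and EREG stand above siNC in all siB4GALT5 libraries, in siB3GNT3 replicates 1 and 2 of AsPC-1 and in the 3 siB3GNT3 libraries of Capan-1, and TGFA and NRG1 are seen mainly in Capan-1.

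The 10 genes spanned a wide range of levels, and their order differed between the groups. With siB4GALT5 in AsPC-1, EREG (97.5 FPKM on average) and EGFR (93.3 FPKM) led with overlapping library ranges, followed by AREG (35.3 FPKM), and then by HBEGF, ERBB3 and ERBB2, neighbours whose ranges overlapped, and by TGFA. With siB3GNT3 replicates 1 and 2, EREG (113 FPKM), EGFR (102 FPKM) and AREG (66.7 FPKM) led without overlap, followed by ERBB3, ERBB2 and HBEGF. In AsPC-1 siNC cells EGFR was highest (65.7 FPKM), followed by EREG (38.0 FPKM) and AREG (9.81 FPKM), then ERBB3 and ERBB2 with overlapping ranges, and HBEGF. In Capan-1 siB3GNT3 cells EREG, AREG, ERBB2 and EGFR led, each overlapping the next, followed by TGFA and then by HBEGF and ERBB3, which overlapped. In Capan-1 siNC cells the order was EREG (37.7 FPKM), ERBB2 (24.3 FPKM), EGFR (19.6 FPKM), then AREG and TGFA with overlapping ranges, HBEGF and ERBB3. By mean, NRG1, BTC and EPGN were the lowest 3 in all 5 groups, though the ranges of TGFA and BTC overlapped in siB3GNT3 replicates 1 and 2 of AsPC-1.

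Among the receptors, EGFR rose with both siRNAs in AsPC-1. It had 95.6, 89.3 and 94.9 FPKM in siB4GALT5 libraries and 100.2 and 103.6 FPKM in siB3GNT3 replicates 1 and 2, against 67.3, 69.4 and 60.5 FPKM in siNC libraries. No knockdown library overlapped the siNC libraries, and the library labelled siB3GNT3 replicate 3 had 62.9 FPKM, within the siNC range. The log2 fold change of FPKM + 1 was 0.50 (SE 0.06, adjusted p = 9.45e-05) with siB4GALT5 and 0.63 (SE 0.07, adjusted p = 6.09e-05) with siB3GNT3 replicates 1 and 2. In Capan-1, EGFR had 26.0, 25.1 and 20.9 FPKM in siB3GNT3 libraries, against 18.4, 20.7 and 19.6 FPKM in siNC libraries. The groups did not overlap, but siB3GNT3 replicate 3 lay just above the siNC libraries, and the log2 difference of 0.28 (SE 0.09) missed the threshold (adjusted p = 0.0509). Without that library it was 0.37 (adjusted p = 0.00129). With each Capan-1 library left out in turn, the adjusted p ran from 0.00129 to 0.172.

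ERBB2, the partner receptor, did not pass the test in any siRNA comparison with siNC. It had 3.92, 3.73 and 6.32 FPKM in AsPC-1 siB4GALT5 libraries and 7.16 and 7.14 FPKM in siB3GNT3 replicates 1 and 2, against 5.55, 6.56 and 6.18 FPKM in siNC libraries, with 5.61 FPKM in the library labelled siB3GNT3 replicate 3. Replicates 1 and 2 of siB4GALT5 were below every siNC library and replicate 3 was within their range, so the log2 difference was -0.35 (SE 0.15, adjusted p = 0.0646), and -0.55 without replicate 3 (adjusted p = 9.08e-05). With each siB4GALT5 or siNC library left out in turn, the adjusted p ran from 9.08e-05 to 0.205. With siB3GNT3 replicates 1 and 2 the log2 difference was 0.20 (SE 0.17, adjusted p = 0.328). In Capan-1, where ERBB2 was more abundant, it had 26.6, 25.1 and 30.6 FPKM in siB3GNT3 libraries, against 24.4, 24.4 and 24.0 FPKM in siNC libraries, groups that did not overlap (log2 0.16, SE 0.08, adjusted p = 0.154). ERBB2 (chr17:39688094-39728658, plus strand) overlaps PGAP3 and MIEN1 on the other strand, which had 0.709 to 6.83 and 11.8 to 49.6 FPKM. EGFR in turn overlaps EGFR-AS1 on the other strand, which had at most 0.146 FPKM. The sources used here do not say whether counting used strand, so reads of these neighbours may be shared.

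ERBB3, the neuregulin receptor, rose with siB3GNT3 in AsPC-1. It had 11.6 and 12.1 FPKM in siB3GNT3 replicates 1 and 2, against 6.27, 6.62 and 6.83 FPKM in siNC libraries, and 6.14 FPKM in the library labelled replicate 3. Both libraries stood clear of the siNC range (log2 0.77, SE 0.10, adjusted p = 0.000236). In siB4GALT5 libraries it had 5.94, 5.71 and 7.52 FPKM, on either side of the siNC libraries (log2 -0.04, SE 0.09, adjusted p = 0.703). In Capan-1 it had 4.49, 4.78 and 4.64 FPKM with siB3GNT3, against 5.68, 5.24 and 5.67 FPKM with siNC. Here the siB3GNT3 libraries were all the lower ones, and the log2 difference of -0.21 (SE 0.07) missed the threshold (adjusted p = 0.0529). ERBB3 (chr12:56080108-56103505, plus strand) overlaps AC034102.2, a protein-coding gene on the same strand. Reads of the 2 may be shared even where counting used strand, and the level of AC034102.2 is not given here.

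Among the ligands, AREG (amphiregulin, which binds EGFR) showed the largest log2 fold change of the genes tested here in AsPC-1. In siB4GALT5 libraries it had 36.9, 42.2 and 26.6 FPKM and in siB3GNT3 replicates 1 and 2 it had 69.8 and 63.6 FPKM, against 10.5, 9.78 and 9.18 FPKM in siNC libraries. The groups were far apart, and the library labelled siB3GNT3 replicate 3, at 10.4 FPKM, lay within the siNC range. The log2 fold change was 1.72 (SE 0.14, adjusted p = 9.61e-06) with siB4GALT5, rank 71 by size among 10804 genes. With siB3GNT3 replicates 1 and 2 it was 2.65 (SE 0.16, adjusted p = 2.56e-06), rank 8. In Capan-1, AREG had 67.8, 32.5 and 21.6 FPKM with siB3GNT3, against 18.2, 17.1 and 18.3 FPKM with siNC. All 3 siB3GNT3 libraries were above the siNC libraries, but they were spread widely (40.6 ± 24.1 FPKM, against 17.9 ± 0.645 FPKM with siNC; SD, n = 3 each). The log2 difference was 0.99 (SE 0.33, adjusted p = 0.0521), 1.35 without siB3GNT3 replicate 3 (adjusted p = 0.00106) and 0.55 without replicate 1 (adjusted p = 0.0361). With each Capan-1 library left out in turn, the adjusted p ran from 0.00106 to 0.133.

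EREG (epiregulin, which binds EGFR and ERBB4) rose with each siRNA. It had 87.1, 99.9 and 105.7 FPKM in AsPC-1 siB4GALT5 libraries and 116 and 110.1 FPKM in siB3GNT3 replicates 1 and 2, against 39.5, 35.8 and 38.6 FPKM in siNC libraries. The groups did not overlap, and the library labelled siB3GNT3 replicate 3 had 38.4 FPKM, a siNC value. The log2 fold change was 1.33 (SE 0.07, adjusted p = 1.09e-06) with siB4GALT5 and 1.55 (SE 0.08, adjusted p = 1.54e-06) with siB3GNT3 replicates 1 and 2. In Capan-1, EREG had 116, 72.1 and 45.1 FPKM with siB3GNT3, against 35.5, 38.9 and 38.7 FPKM with siNC. The siB3GNT3 libraries again were all the higher ones and again were spread, with replicate 3 nearest to siNC (log2 0.93, SE 0.28, adjusted p = 0.0349). The call was lost without siNC replicate 1, 2 or 3 (adjusted p = 0.106, 0.0882 and 0.0886) and without siB3GNT3 replicate 2 (0.0924), and the log2 fold change was 0.59 without siB3GNT3 replicate 1.

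HBEGF (heparin-binding EGF-like growth factor, which binds EGFR and ERBB4) moved in opposite directions with the 2 siRNAs. In AsPC-1 it had 7.16, 7.70 and 8.81 FPKM with siB4GALT5 and 2.67 and 2.44 FPKM with siB3GNT3 replicates 1 and 2, against 4.44, 3.50 and 4.39 FPKM with siNC. The siB4GALT5 libraries were all above and the siB3GNT3 replicates both below the siNC libraries, and the library labelled siB3GNT3 replicate 3 had 4.14 FPKM. The log2 fold change was 0.80 (SE 0.10, adjusted p = 0.00011) with siB4GALT5 and -0.52 (SE 0.11, adjusted p = 0.00322) with siB3GNT3 replicates 1 and 2. In Capan-1, HBEGF fell to 6.67, 5.43 and 2.86 FPKM with siB3GNT3, against 11.1, 11.6 and 12.9 FPKM with siNC. These groups did not overlap (log2 -1.16, SE 0.22, adjusted p = 0.00637), and in this line siB3GNT3 replicate 3, nearest to siNC for EREG and AREG, was the farthest from it.

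TGFA (transforming growth factor alpha, an EGFR ligand) was abundant in Capan-1 only. It had 0.826, 1.17 and 1.12 FPKM in AsPC-1 siB4GALT5 libraries and 0.306 and 0.250 FPKM in siB3GNT3 replicates 1 and 2, against 0.365, 0.310 and 0.202 FPKM in siNC libraries. The library labelled siB3GNT3 replicate 3 had 0.488 FPKM, above every siNC library of the line. The siB4GALT5 libraries were all above the siNC libraries, but TGFA did not pass the filter in AsPC-1. Tested with no filter on low values, the log2 fold change with siB4GALT5 was 0.65 (adjusted p = 0.00169). In Capan-1, TGFA had 8.46, 8.98 and 17.6 FPKM with siB3GNT3, against 16.3, 17.9 and 17.3 FPKM with siNC. Replicates 1 and 2 were far below siNC and replicate 3 was within its range, so the log2 difference was -0.59 (SE 0.23, adjusted p = 0.0783), and -0.90 without replicate 3 (adjusted p = 9.52e-06). With each Capan-1 library left out in turn, the adjusted p ran from 9.52e-06 to 0.225.

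The remaining 3 ligands were at low levels. BTC (betacellulin, a ligand of EGFR and ERBB4) had at most 0.653 FPKM and EPGN (epigen, an EGFR ligand) at most 0.0847 FPKM in any library, and neither passed the filter in any fit. Tested with no filter, BTC was higher with siB3GNT3 replicates 1 and 2 in AsPC-1 (log2 0.25, adjusted p = 0.0296), at 0.260 and 0.280 FPKM, against 0.107, 0.0898 and 0.00589 FPKM with siNC. The library labelled siB3GNT3 replicate 3 had 0.0238 FPKM of BTC. In the same way EPGN was lower in AsPC-1 than in Capan-1 under siNC (log2 -0.08, adjusted p = 0.00797). Its response to siB3GNT3 differed between the lines (log2 0.12, adjusted p = 0.0297), at levels of at most 0.0847 FPKM in any library. It had 0.0708 and 0.0146 FPKM in AsPC-1 siB3GNT3 replicates 1 and 2, against at most 0.00711 FPKM with siNC. The library labelled replicate 3, whose target was at the siNC level, lay between them at 0.0428 FPKM. In Capan-1 EPGN averaged 0.0165 FPKM with siB3GNT3 and 0.0614 FPKM with siNC. NRG1 (neuregulin 1) had at most 0.0402 FPKM in AsPC-1. In Capan-1 it had 1.65, 1.42 and 1.06 FPKM with siB3GNT3, against 1.43, 1.48 and 1.86 FPKM with siNC, groups that overlapped (log2 -0.13, SE 0.12, adjusted p = 0.418). Of the family genes outside the 10, ERBB4 had at most 0.0362 FPKM, EGF 0.117 to 0.334 FPKM, NRG2 at most 0.888 FPKM and NRG4 at most 0.550 FPKM. NRG3, a ligand of ERBB4, was listed at 0 in all AsPC-1 libraries. It rose in Capan-1 to 2.30, 1.98 and 1.91 FPKM with siB3GNT3, against 1.16, 1.07 and 1.11 FPKM with siNC (log2 0.53, SE 0.09, adjusted p = 0.00314).

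**Figure D2:**
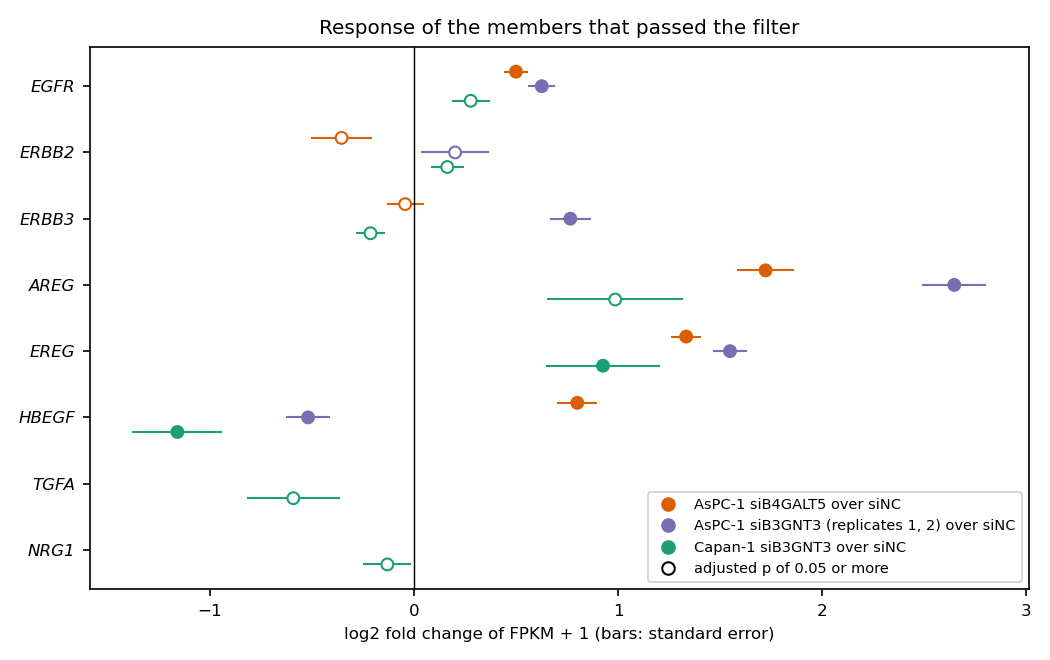
Log2 fold change of FPKM + 1 against siNC of the same line for the 8 genes that passed the filter in at least one line (x axis; bars, standard error); filled points passed an adjusted p of 0.05. AREG and EREG lie to the right in all 3 comparisons (AREG in Capan-1 open), and HBEGF lies right of 0 with siB4GALT5 and left of it with siB3GNT3 in both lines.

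Many genes changed in every comparison, and the counts of the 10 genes are read against that background. With siB4GALT5, 4 of the 6 genes tested rose (EGFR, AREG, EREG and HBEGF) and 0 fell, while 58.2% of all 10804 genes tested were called, 35.1% higher and 23.1% lower. With siB3GNT3 replicates 1 and 2, 4 of 6 rose (EGFR, ERBB3, AREG and EREG) and 1 fell (HBEGF), while 52.9% of all genes were called, 32.4% higher and 20.4% lower. These 2 comparisons share the siNC libraries. In Capan-1, 1 of 8 rose (EREG) and 1 fell (HBEGF), while 32.9% of 11493 genes were called, 18.7% higher and 14.2% lower. These shares rest on 6 to 8 genes and are a description. The median log2 fold change of the genes tested here was 0.65, 0.70 and 0.02 in the 3 comparisons, against 0.06, 0.07 and 0.02 over all genes. With the library labelled siB3GNT3 replicate 3 kept in its group, limma called 0 genes of 10804 for siB3GNT3 in AsPC-1, with 3011 at an unadjusted p under 0.05, 4 of them among the 10 (AREG 1.79 and EREG 1.04 on the log2 scale, each with adjusted p = 0.168). Of the calls 60.4% were higher with siB4GALT5 (49.8% after median-ratio scaling, 70.5% after rescaling to a common sum) and 61.3% with siB3GNT3 in AsPC-1 (49.6% and 72.0%).

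The 2 siRNAs were set against each other in AsPC-1, a comparison in which siNC libraries enter only the estimate of spread. B3GNT3 itself was higher with siB4GALT5 than with siNC, so these groups differ in it by more than its knockdown. Of 6 genes tested, HBEGF was higher with siB4GALT5 than with siB3GNT3 replicates 1 and 2, and ERBB2, ERBB3 and AREG were lower, while 35.1% of 10804 genes were called, 17.7% higher and 17.3% lower. HBEGF differed most, at 7.89 ± 0.837 FPKM with siB4GALT5 (SD, n = 3), against 2.67 and 2.44 FPKM with siB3GNT3 (log2 1.32, SE 0.11, adjusted p = 2.97e-05). The log2 difference was -0.81 for ERBB3 (SE 0.10, adjusted p = 0.00036), -0.92 for AREG (SE 0.16, adjusted p = 0.00187) and -0.56 for ERBB2 (SE 0.17, adjusted p = 0.0278). Leaving out siB3GNT3 replicate 1 or 2, or siB4GALT5 replicate 1 or 2, ended the ERBB2 call (adjusted p = 0.121, 0.118, 0.08 and 0.074). EGFR was not called (log2 -0.13, 95% interval -0.28 to 0.02, adjusted p = 0.169), nor was EREG (-0.21, -0.40 to -0.03, adjusted p = 0.0719), which passed without siB4GALT5 replicate 3 (-0.27, adjusted p = 0.0095). With each library of these groups left out in turn, the EREG adjusted p ran from 0.0095 to 0.295.

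The ligands were also summed as a pool. Summed over the 6 EGFR ligands, the level was 132.1, 151.3 and 142.3 FPKM with siB4GALT5 and 189.1 and 176.7 FPKM with siB3GNT3 replicates 1 and 2 in AsPC-1, against 54.9, 49.5 and 52.4 FPKM with siNC and 53.4 FPKM in the library labelled siB3GNT3 replicate 3. In Capan-1 it was 200.1, 119.3 and 87.7 FPKM with siB3GNT3, against 81.5, 85.7 and 87.5 FPKM with siNC. Replicate 3 of siB3GNT3 thus had a summed ligand level next to siNC while its HBEGF was the lowest of the line. AREG and EREG made up 92.1%, 87.6% and 76.1% of the sum in Capan-1 siB3GNT3 libraries, against 65.1% to 65.9% in siNC libraries, and 91.0% to 98.3% in AsPC-1. EREG exceeded AREG in every library, by 2.36, 2.36 and 3.97 times with siB4GALT5 and by 1.66 and 1.73 times with siB3GNT3 replicates 1 and 2, against 3.77, 3.67 and 4.21 times with siNC in AsPC-1. In Capan-1 the ratio was 1.72, 2.22 and 2.09 with siB3GNT3, against 1.95, 2.27 and 2.12 with siNC, ranges that overlapped. No test was run on these sums and ratios.

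**Figure D3:**
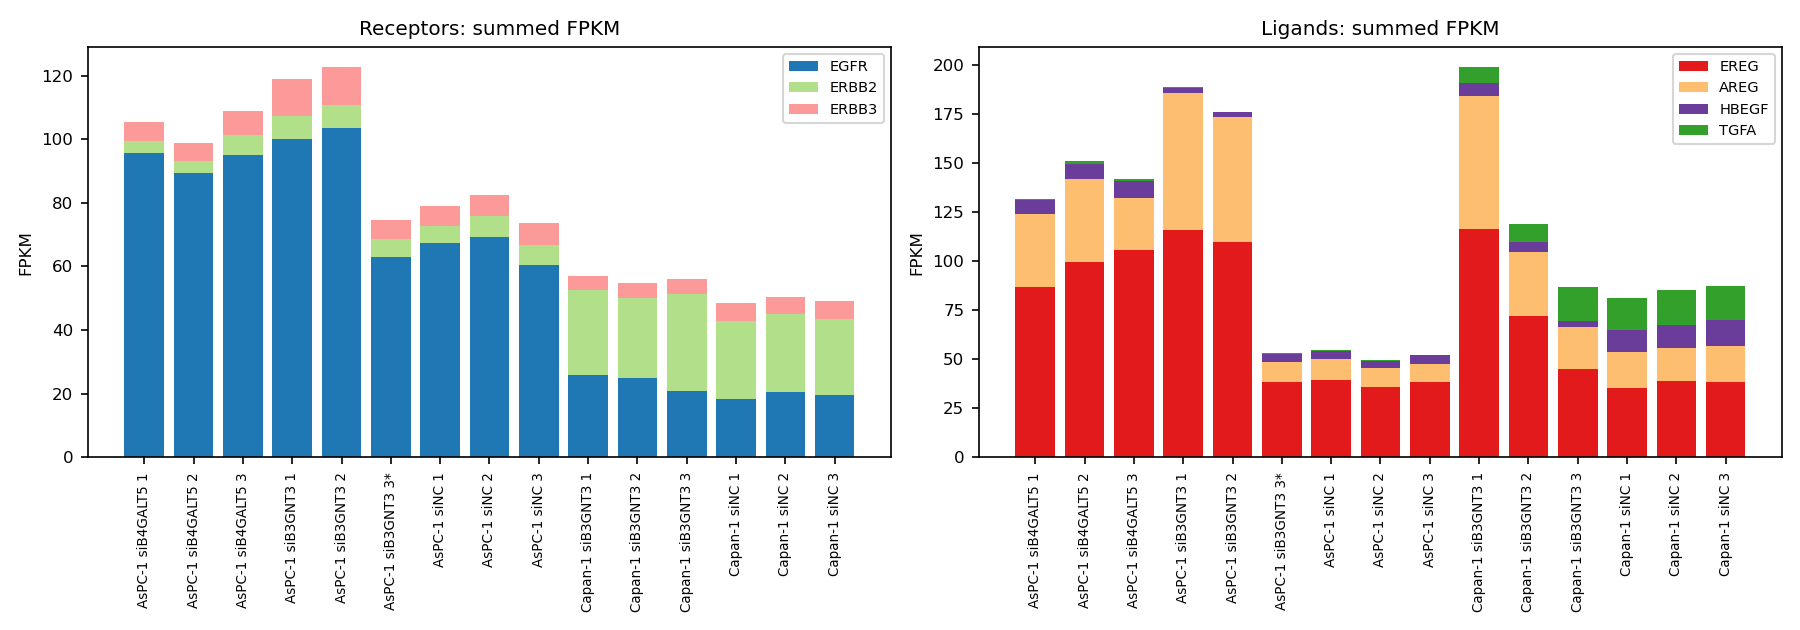
Summed FPKM of the 3 receptors (left) and of the 4 most abundant EGFR ligands (right) in each of the 15 libraries; colours stand for genes, and the asterisk marks the library labelled AsPC-1 siB3GNT3 replicate 3. EGFR fills most of the receptor bar in AsPC-1 and shares it with ERBB2 in Capan-1, and TGFA and HBEGF form a visible share of the ligand bar in Capan-1 siNC libraries.

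The lines themselves differed in receptor and ligand levels under siNC. EGFR had 65.7 ± 4.62 FPKM in AsPC-1 and 19.6 ± 1.14 FPKM in Capan-1, while ERBB2 had 6.10 ± 0.511 FPKM in AsPC-1 and 24.3 ± 0.247 FPKM in Capan-1 (SD, n = 3 each). EGFR was therefore 9.80 to 12.1 times ERBB2 in AsPC-1 siNC libraries and 0.753 to 0.845 times in Capan-1 siNC libraries. Of 8 genes tested, EGFR and ERBB3 were higher in AsPC-1 and 5 were lower, while 78.1% of 12247 genes were called, 34.6% higher and 43.5% lower. The log2 difference of AsPC-1 over Capan-1 was 1.70 for EGFR (SE 0.08, adjusted p = 1.09e-10), -1.84 for ERBB2 (SE 0.13, adjusted p = 1.17e-08) and -1.34 for HBEGF (SE 0.19, adjusted p = 1.29e-05). TGFA had 0.292 ± 0.0831 FPKM in AsPC-1 and 17.2 ± 0.788 FPKM in Capan-1, and it and NRG1 passed the filter through Capan-1 alone, so that their values had to differ. AREG was 0.80 lower on the log2 scale (SE 0.28, adjusted p = 0.0183, and 0.0508 without AsPC-1 siNC replicate 3). ERBB3 differed by 0.21 (SE 0.08, adjusted p = 0.029), a call lost without AsPC-1 siNC replicate 2 or 3 or Capan-1 siNC replicate 2 (0.0668, 0.0892 and 0.101). The SEs and intervals of this fit pool the spread of all groups. Among them is Capan-1 siB3GNT3, with an SD of 24.1 FPKM for AREG and 36.0 FPKM for EREG. Under siNC, AREG had 9.81 ± 0.653 FPKM in AsPC-1 and 17.9 ± 0.645 FPKM in Capan-1, without overlap. EREG had 38.0 ± 1.92 and 37.7 ± 1.90 FPKM (SD, n = 3 each). EREG differed by 0.01 (95% interval -0.47 to 0.49, adjusted p = 0.963). The median over all genes was -0.09, and -0.22 after rescaling to a common sum, under which ERBB3 differed by 0.07 (adjusted p = 0.451) and EREG by -0.15.

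The response to siB3GNT3 was then compared between lines, as the AsPC-1 change of replicates 1 and 2 minus the Capan-1 change. Of 8 genes tested it was greater in AsPC-1 for EGFR, ERBB3 and AREG, while 32.7% of 12247 genes were called, 18.9% higher and 13.8% lower. Of the calls 57.9% were higher, against 46.7% after median-ratio scaling and 64.1% after rescaling to a common sum. ERBB3 differed by 0.98 (SE 0.12, adjusted p = 7.73e-05), with libraries above siNC in AsPC-1 and below it in Capan-1. AREG differed by 1.66 (SE 0.42, adjusted p = 0.00885) and EGFR by 0.35 (SE 0.12, adjusted p = 0.038). The EGFR call was lost without AsPC-1 siNC replicate 1 or 3, AsPC-1 siB3GNT3 replicate 1 or 2, or Capan-1 siNC replicate 2 or 3 (adjusted p = 0.0544 to 0.124). For EREG the difference was 0.62 (95% interval -0.10 to 1.34, adjusted p = 0.173, and 0.0038 without Capan-1 siB3GNT3 replicate 1). HBEGF differed by 0.64 (0.04 to 1.24, adjusted p = 0.0929, and 0.0176 without the same library), TGFA by 0.58 (adjusted p = 0.132, and 0.000131 without Capan-1 siB3GNT3 replicate 3), ERBB2 by 0.04 (adjusted p = 0.902) and NRG1 by 0.10 (adjusted p = 0.597). With each library left out in turn, the adjusted p ran up to 0.317 for EREG, 0.215 for HBEGF and 0.272 for TGFA. TGFA and NRG1 passed the filter through Capan-1 alone. In AsPC-1, TGFA averaged 0.292 FPKM with siNC and 0.278 FPKM with siB3GNT3 replicates 1 and 2, and NRG1 0.0285 and 0.00731 FPKM. At such levels FPKM + 1 can hardly change. Their differences are thus nearly the Capan-1 changes (-0.59 and -0.13) with the sign turned, and cannot show a response particular to a line.

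Genes that act around the receptors were counted in 4 lists drawn from general knowledge, to be read against the shares of all genes called: 58.2% with siB4GALT5, 52.9% with siB3GNT3 replicates 1 and 2 and 32.9% in Capan-1. The list of MAPK output, early and feedback genes that ERK signalling is known to induce, had 14 of 20 tested genes up and 3 down with siB4GALT5, and 10 up and 3 down with siB3GNT3 replicates 1 and 2, where 35.1% and 32.4% of all genes were higher. Its median log2 fold change was 0.41 and 0.32, against 0.06 and 0.07 over all genes. EGR1, an immediate early transcription factor, had 6.17, 6.14 and 5.80 FPKM with siB4GALT5 and 4.34 and 4.45 FPKM with siB3GNT3, against 1.81, 1.58 and 1.72 FPKM with siNC. The log2 fold change of EGR1 was 1.38 (adjusted p = 5.62e-07) and 1.00 (adjusted p = 8.27e-06). With siB4GALT5, JUN rose by 1.46, IER2 by 1.63 and SPRY2, an inhibitor of receptor signalling, by 1.60, and with siB3GNT3 JUN and IER2 rose by 1.32 each and DUSP6, an ERK phosphatase, by 0.98. The genes of the list that fell were CCND1 (log2 -0.86), SPRED1 (-0.29) and FOSL1 (-0.13) with siB4GALT5. With siB3GNT3 replicates 1 and 2 they were FOSL1 (-0.67), CCND1 (-0.65) and PHLDA1 (-0.35).

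In Capan-1 the MAPK output list had 6 of 19 tested genes up and 1 down, with a median of 0.41, against 0.02 over all genes, and its 7 calls are near the 32.9% of all genes called. Without siB3GNT3 replicate 3 it had 15 up and 1 down, while 5715 of 11338 genes were called over all. DUSP6 shows the pattern, with 44.7, 40.3 and 18.5 FPKM in siB3GNT3 libraries, against 22.1, 22.3 and 21.5 FPKM in siNC libraries. SPRY2 had 12.1, 9.74 and 4.96 FPKM with siB3GNT3, against 5.59, 5.52 and 6.31 FPKM with siNC. In both genes replicates 1 and 2 were above and replicate 3 below the siNC libraries, and both were chosen as examples after their values were seen. Among the genes that passed, FOSL1, an AP-1 subunit, fell by 1.06 (adjusted p = 0.000109), while DUSP5 and MYC each rose by 0.95 (adjusted p = 0.0109 and 0.0119) and FOS by 0.49 (adjusted p = 0.0309).

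The list of receptor feedback and turnover genes does not set apart genes that restrain ERBB receptors from genes that spare them. It had 10 of 16 up and 2 down with siB4GALT5 (median 0.30) and 7 up and 2 down with siB3GNT3 replicates 1 and 2 (median 0.19). In Capan-1 it had 2 of 17 up and 1 down (median 0.09). The medians over all genes were 0.06, 0.07 and 0.02, and the 9 calls of 16 with siB3GNT3 in AsPC-1 are near the 52.9% of all genes called, while the 3 of 17 in Capan-1 are below the 32.9%. ERRFI1, which binds and inhibits EGFR, had 27.3, 30.3 and 23.9 FPKM in siB4GALT5 libraries, against 9.87, 10.5 and 9.79 FPKM in AsPC-1 siNC libraries (log2 1.35, adjusted p = 1.78e-06). In siB3GNT3 replicates 1 and 2 it had 10.7 and 11.0 FPKM, just above siNC, and was not called (log2 0.10, adjusted p = 0.378). In Capan-1, ERRFI1 had 65.8, 51.5 and 24.2 FPKM with siB3GNT3, against 23.0, 23.3 and 25.4 FPKM with siNC, so 2 libraries were far above siNC and replicate 3 was within its range (log2 0.84, adjusted p = 0.0633). RNF41, a ubiquitin ligase for ERBB3, rose in AsPC-1 by 0.66 with siB4GALT5 (adjusted p = 2.87e-05) and by 0.63 with siB3GNT3 (adjusted p = 9.34e-05). In Capan-1, LRIG3 rose by 0.92 and SH3KBP1, an adaptor of receptor endocytosis, fell by 0.69 (adjusted p = 0.00307 and 0.00202). Without siB3GNT3 replicate 3 this list had 5 up and 2 down, while 5715 genes were called over all.

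**Figure D4:**
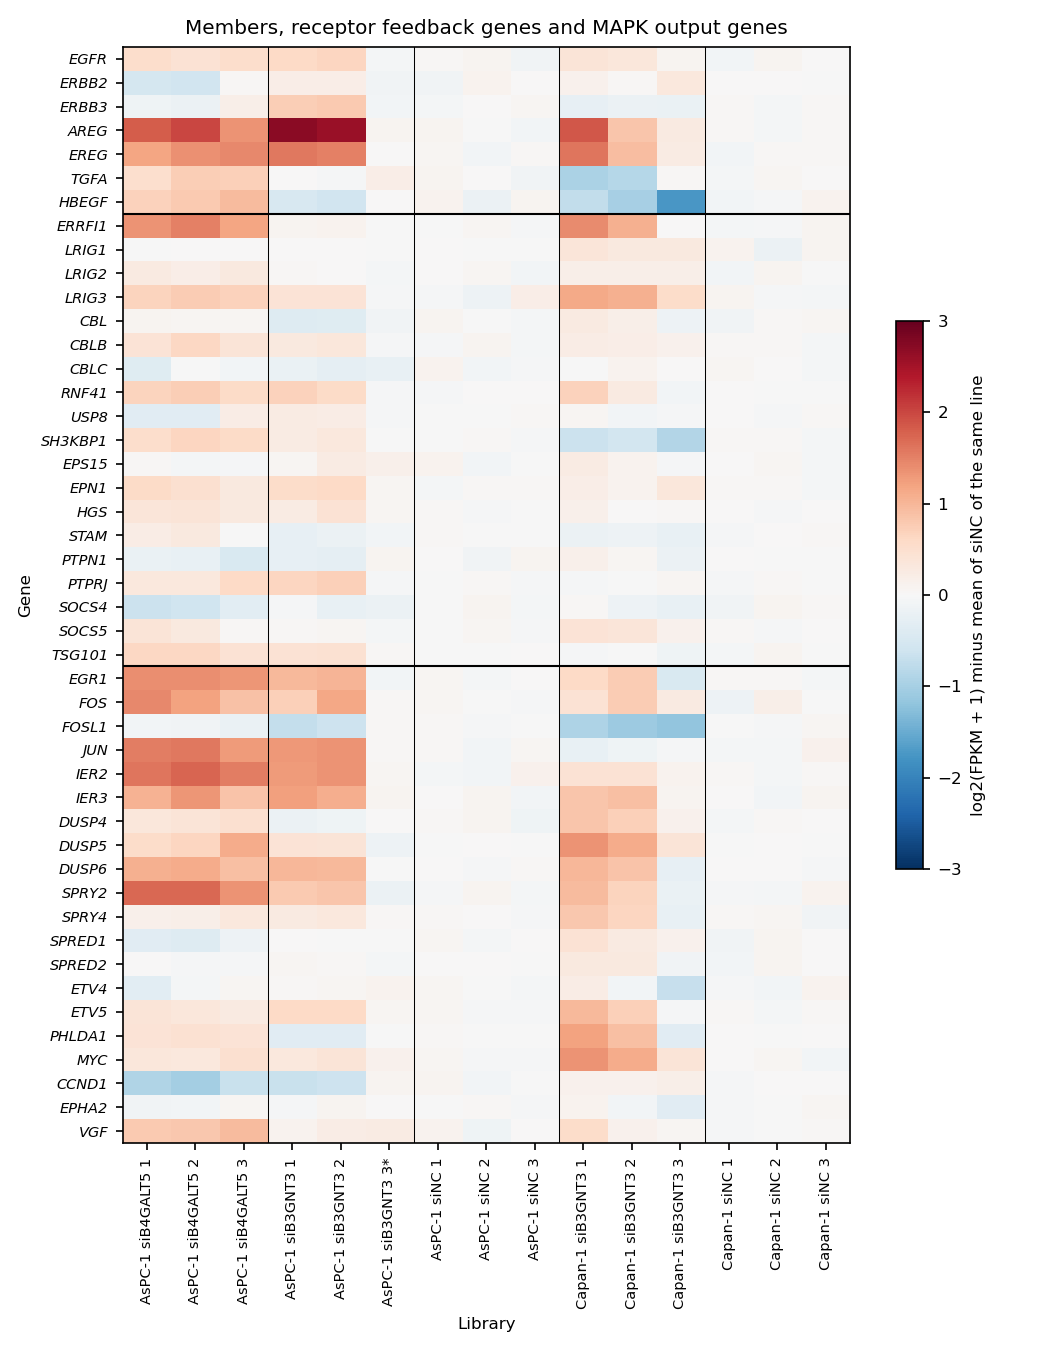
Log2(FPKM + 1) in each library minus the mean of the siNC libraries of its line, for 7 of the ERBB genes (top), receptor feedback and turnover genes (middle) and MAPK output genes (bottom); red is higher and blue lower, and an asterisk stands beside the library of AsPC-1 labelled siB3GNT3 replicate 3. Its column is pale like the siNC columns, and Capan-1 siB3GNT3 replicate 3 is paler for DUSP6, SPRY2 and ERRFI1 than replicates 1 and 2.

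Receptor adaptors and signal starters had 7 of 22 up and 3 down with siB4GALT5, 5 of 22 up and 6 down with siB3GNT3 replicates 1 and 2, and 3 of 21 up and 7 down in Capan-1. The calls are below the share of all genes called in the first of these (58.2%) near it in the second (52.9%) and above it in Capan-1 (32.9%). MAP2K1, an ERK-activating kinase, fell by 0.95 with siB3GNT3 in AsPC-1 (adjusted p = 1.31e-05), and MAPK3, an ERK gene, fell by 1.07 with siB3GNT3 in Capan-1 (adjusted p = 0.000527). MAPK3 had 10.8, 12.3 and 15.3 FPKM in Capan-1 siB3GNT3 libraries, against 28.5, 27.7 and 26.9 FPKM in siNC libraries, groups that did not overlap. STAT3 rose in all 3 comparisons, by 0.65 and 0.58 in AsPC-1 and by 0.71 in Capan-1 (adjusted p = 1.64e-05, 7.82e-05 and 0.000429), and BRAF by 0.76 and 0.98 in AsPC-1 and by 0.33 in Capan-1 (adjusted p = 1e-05, 6.88e-06 and 0.0318).

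Ligand shedding genes had 1 of 9 up and 2 down with siB4GALT5, 2 of 9 up and 1 down with siB3GNT3 replicates 1 and 2, and 2 of 11 up and 1 down in Capan-1. In AsPC-1 the 3 calls of 9 are below the 58.2% and 52.9% of all genes called. Without siB4GALT5 replicate 3 the first of these counts was 2 up and 3 down, while the calls over all genes were 6879 of 10739. FRMD8, which stabilises the iRhom-ADAM17 sheddase complex, fell to 11.8 and 11.8 FPKM in siB3GNT3 replicates 1 and 2, against 26.3, 26.4 and 24.8 FPKM with siNC in AsPC-1 (log2 -1.07, adjusted p = 4.73e-06). With siB4GALT5 FRMD8 fell by 0.26 (adjusted p = 0.00564). ADAM17, the main sheddase of AREG and EREG precursors, rose by 0.28 in Capan-1 (adjusted p = 0.0185) and was not called with siB3GNT3 in AsPC-1 (log2 0.41, adjusted p = 0.0714). TIMP3, an inhibitor of ADAM17, fell in Capan-1 to 1.27, 1.41 and 1.27 FPKM with siB3GNT3, against 2.55, 3.25 and 4.53 FPKM with siNC (log2 -0.92, adjusted p = 0.00343).

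Likeness of pattern was measured as Pearson r of log2(FPKM + 1) over the 14 libraries other than the one labelled AsPC-1 siB3GNT3 replicate 3, among 7442 genes with a mean of at least 5 FPKM. These libraries share lines and treatments, so r takes in the difference between lines, and the values are descriptive. EREG was most like TRIB3 (r 0.982), SARS1 (0.974) and ATF3 (0.972), and AREG was most like CDKN2B (0.966), NCOA3 (0.951) and XBP1 (0.950). The r between AREG and EREG was 0.905. For EGFR the nearest genes were TLR6, PSD3 and SLC6A8 (0.992 to 0.996), for ERBB2 PAPSS2, SUPT16H and GOLM2 (0.993 for the first), and for TGFA F11R, EMC10 and PKD2 (0.990 to 0.992). NRG1 was nearest to SERPINA5 (0.995), ERBB3 to DOK4 (0.944) and HBEGF to TINAGL1 (0.929).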

How the data were processed

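RNA sequencing of 15 libraries was analysed from 1 table that the authors deposited, with FPKM per gene and library. Per the submitters' processing notes, Bowtie2, RSEM 1.3.1 and DESeq2 1.4.5 were used with GRCh38; the step each tool served, the gene annotation and the strand setting are not given in the sources used here. Total reads per library are unknown. The smallest values (up to 0.05 FPKM) stepped by nearly the same amount in all libraries, at 0.971 to 1.054 times the first AsPC-1 siNC library, judged from genes within 15% of each other, a window that cannot show larger gaps.

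FPKM were used as deposited, with no further scaling. Differences were tested with limma 3.58.1 (R 4.3.3), with an intensity trend, on log2(FPKM + 1), for genes with at least 1 FPKM in at least 3 libraries of the fit. A fold change on this scale understates the change of low genes. P-values were adjusted over all genes tested by the Benjamini-Hochberg method, two-sided, with a threshold of 0.05 for a call. A fit held the 9 AsPC-1 libraries with 4 coefficients, the library labelled AsPC-1 siB3GNT3 replicate 3 having its own. The 6 Capan-1 libraries were fitted apart, and all 15 with 6 coefficients for comparisons between lines. Of the 10 genes, 6 passed the filter in AsPC-1, 8 in Capan-1 and 8 in the fit of all 15.

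The genes, lists, tests and alternatives were chosen with earlier results of these data known. All 10 genes are named; of each list, the counts and up to 4 genes with the smallest p; and for likeness, up to 3 genes each. DUSP6, SPRY2, ERRFI1, BRAF, CCND1, FOSL1, SPRED1 and PHLDA1 are also given in comparisons where the rule did not pick them. Some genes that the rule picked are not reported here. The alternatives were pseudocount 0.1, no filter, a filter of 5 FPKM, the replicate number as a block, median-ratio scaling, a fit with no trend, rescaling to a common sum, leaving out each library, only the groups compared, and the library set apart kept in its group. List counts without AsPC-1 siB4GALT5 replicate 3 or Capan-1 siB3GNT3 replicate 3 were added after the data were seen. The scripts were tested on simulated data. Promoters and positions are RefSeq's on GRCh38.p14, and figures were drawn with Python 3.11.15, pandas 2.3.3, numpy 2.4.6 and matplotlib 3.10.9.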

Additional observations from a re-analysis of the deposited data

Results flagged for a closer look

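Of the 10 genes, 3 differed between AsPC-1 and Capan-1 in their response to siB3GNT3 by the test of that difference (limma, adjusted over 12247 genes). Of the 10 genes 8 were tested, and 32.7% of all genes tested were called, a share near that count. The AsPC-1 response of replicates 1 and 2 minus the Capan-1 response was 0.98 on the log2 scale for ERBB3 (adjusted p = 7.73e-05), with both AsPC-1 libraries above and all 3 Capan-1 libraries below the siNC libraries of their line. For AREG it was 1.66 (adjusted p = 0.00885), with all 5 libraries above siNC. For EGFR it was 0.35 (adjusted p = 0.038), again with all 5 above siNC, and with 1 library left out its adjusted p ran from 0.0182 to 0.124, and the call was lost without AsPC-1 siNC replicate 1 or 3, AsPC-1 siB3GNT3 replicate 1 or 2, or Capan-1 siNC replicate 2 or 3.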

How the results depend on the processing

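The log2 fold change of each gene that passed the filter was recomputed under every alternative that gave one (NRG1 had none with a filter of 5 FPKM): 559 values kept their direction and their side of the threshold, 39 lost a call, 21 gained one and 12 changed sign. With the library labelled AsPC-1 siB3GNT3 replicate 3 kept in its group, limma called 0 of the 10 genes and 0 of all genes for siB3GNT3 in AsPC-1 (4 and 3011 at an unadjusted p under 0.05), 1 and 1716 for siB4GALT5 against siB3GNT3, and 0 (3 unadjusted) and 1204 for the difference between lines. For siB3GNT3 in Capan-1, the 2 genes called became 1 with no filter and 4 with a filter of 5 FPKM, a common sum or the replicate block. The counts over all genes under these settings are not given here, so a change particular to the 10 genes cannot be read from them. Leaving out 1 library gave 4 to 5 of the 10 genes for siB4GALT5, 3 to 5 for siB4GALT5 against siB3GNT3, 1 to 6 for Capan-1 (6 without siB3GNT3 replicate 3; 1 without siB3GNT3 replicate 2 or any siNC library), 5 to 7 between the siNC groups and 2 to 5 for the difference between lines (5 without Capan-1 siB3GNT3 replicate 1). The count over all genes then ran from 2138 to 4870 for siB4GALT5 against siB3GNT3 (2138 and 2192 without siB3GNT3 replicate 1 or 2), from 2069 to 5715 in Capan-1 (5715 without siB3GNT3 replicate 3; 2069 to 2112 without a siNC library) and from 2836 to 5033 for the difference between lines. For siB4GALT5 against siNC it ran from 5415 to 6879, and between the siNC groups from 9079 to 9143.

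Signs changed only for differences that were not called. ERBB3 with siB4GALT5 was 0.034 with a common sum and -0.15 to 0.023 with 1 library left out. EGFR and EREG for siB4GALT5 against siB3GNT3 were 0.10 and 0.30 with the libraries as labelled. EREG between the siNC groups was -0.15 with a common sum and -0.029 to 0.052 with 1 library left out. In the difference between lines, NRG1 was -0.052 with pseudocount 0.1, and ERBB2 was -0.031 with median-ratio scaling, -0.062 as labelled and -0.021 to 0.12 with 1 library left out. The cause was not tested.

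Libraries with the same replicate number in the sample titles did not deviate together (r from -0.06 to 0.06), so these numbers give no sign of a pairing. The library names carry other numbers, and a pairing or batch that follows those was not checked. With the replicate block, the counts of the 10 genes were 5 for siB4GALT5, 5 for siB3GNT3 in AsPC-1, 4 for siB4GALT5 against siB3GNT3, 4 in Capan-1, 7 between the siNC groups and 2 for the difference between lines. The counts over all genes with this block are not given here, so these counts are a description only. Without read counts, how far depth limits BTC, EPGN and NRG1 is unknown.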
